A study of Mus musculus with 48 samples.

Results

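The major histocompatibility complex (MHC) and its partners display peptides to T cells, and 10 of these genes were followed across the livers of mice with and without PPARα, the lipid-sensing nuclear receptor. Members were all probes of the array that carried 1 of 10 gene names: the class II chains H2-Aa, H2-Ab1 and H2-Eb1, their partners Cd74, H2-DMa and Ciita, and the class I genes H2-K1, H2-D1, B2m and Tap1. These names covered 19 of the 56605 probes, of which 18 were bright enough to be tested among 33323 tested probes. The untested one was a dim cDNA-clone probe of Ciita, well above background on 2 of 48 arrays, and every gene kept at least 1 tested probe. Where a gene had several, its value is that of the brightest one.

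RNA came from the livers of 48 male C57BL/6J mice, each hybridised to its own 1-colour array, in 6 groups of 8. The groups crossed 3 genotypes with a low-fat control diet (CTRL) or a diet with 60% fat (HFD), given for 12 weeks by the labels to mice that were 20 weeks old, all housed at thermoneutrality. The study's text gives a shorter feeding time than the labels. WT mice carried Pparα and were bought from a breeder. Pparαhep-/- mice had both floxed Pparα alleles cut by an albumin-Cre transgene, which acts in hepatocytes, so that other liver cells kept the receptor, and Pparα-/- mice lacked it in every cell from the germline on. Both deletion lines were bred in the study's own facility, so the origin of the mice and their genotype cannot be told apart. Values are log2 signals after quantile normalisation, and a difference counts as called where limma gave an adjusted p no higher than 0.05, with Benjamini-Hochberg adjustment over all 33323 probes.

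MHC class I molecules sit on nearly all cells. A heavy chain such as H2-K1 or H2-D1 pairs with the light chain B2m and holds peptides cut from the cell's own proteins, which the transporter Tap1 carries into the endoplasmic reticulum. MHC class II molecules are made mainly by macrophages, dendritic cells and B cells. There the paired chains are escorted by the invariant chain Cd74, H2-DMa helps to swap its remnant for a peptide from ingested protein, and the coactivator Ciita switches the whole set on. In the liver, Kupffer cells and other resident or recruited leukocytes carry most class II, while hepatocytes carry class I.

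The promoters of several members share a layout that has long been known, a short box resembling a CREB or ATF site followed by an inverted CCAAT box, and it is shown here because it joins the class I to the class II genes. RefSeq promoters (GRCm38.p6, a window around each gene's start) were at hand for 7 of the 10 genes. The boxes TGACG or TGATG followed by ATTGG, with the second starting 20 to 30 bases after the first, were found in the reading direction in 5 of these 7 genes and in 0.624% of all 32851 promoters, or 1.08% on either strand. With TGACG alone as the first box they were found in 4 of the 7 and in 0.25% of all promoters. A match describes these letters only. Capitals mark the 2 boxes, and each stretch is written 5′ to 3′ along its gene.
H2-Aa: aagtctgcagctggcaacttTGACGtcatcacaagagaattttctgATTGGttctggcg
H2-Eb1: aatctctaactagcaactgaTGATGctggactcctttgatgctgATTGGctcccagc
H2-K1: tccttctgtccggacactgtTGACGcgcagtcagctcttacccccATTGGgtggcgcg
H2-D1: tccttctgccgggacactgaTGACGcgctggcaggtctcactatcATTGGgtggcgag
B2m: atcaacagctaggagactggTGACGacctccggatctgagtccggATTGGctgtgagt
The stretches lie at chr17:34287859-34287917 (minus strand) for H2-Aa, chr17:34305764-34305820 (plus) for H2-Eb1, chr17:34000351-34000408 (minus) for H2-K1, chr17:35262973-35263030 (plus) for H2-D1 and chr2:122147589-122147646 (plus) for B2m. The second box began 26 bases after the first in H2-Aa, 24 in H2-Eb1 and 25 in H2-K1, H2-D1 and B2m. H2-Eb1 and H2-D1 each held another TGATG that began 3 bases further upstream. H2-DMa and Tap1 did not hold the pair in this window.

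The array was read on 6 slides in 2 wash batches, each batch holding 3 to 5 mice of every group. Across the arrays 28234 to 38217 spots were well above background, no spot was saturated, and array weights, which discount arrays that scatter more over all probes, ran from 0.19 to 2.53. Weights were under 0.5 on 5 arrays, and 3 of these, WT mouse 6 on CTRL, WT mouse 6 on HFD and Pparαhep-/- mouse 1 on CTRL, were the highest of their groups in every class II member, the others being WT mouse 2 on HFD and Pparα-/- mouse 3 on CTRL. The same 3 mice were the highest of their groups in the mean log2 signal of 4 leukocyte markers, at 11.27, 11.32 and 11.34. These arrays stand apart for both reasons, and calls that are lost without array weights are marked as such below. The 2 tested Ppara probes were lower in Pparα-/- than in WT livers, by 0.65 and 1.11 on CTRL and by 1.08 and 1.29 on HFD, as log2 differences. In Pparαhep-/- livers they lay at -0.42 (called) and -0.10 (not called, adjusted p of 0.45 by limma) from WT on CTRL, and at -0.85 and -0.68, both called, on HFD. Where these probes lie relative to the deleted exon was not established here, so they are no full check of the labels. The 8 hepatocyte markers were bright in every group, with group medians of their mean log2 signal from 16.59 to 16.95.

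All 6 class II genes were higher in Pparα-/- than in WT livers on both diets and in Pparαhep-/- than in WT livers on HFD, and 3 of the 6 were higher in Pparαhep-/- livers on CTRL, in the weighted fit. They also varied widely from mouse to mouse. For Cd74, the invariant chain, the log2 signals in WT mice ran from 10.81 through a median of 11.49 to 13.57 on CTRL and from 10.96 through 11.79 to 14.08 on HFD. In Pparαhep-/- mice they ran from 11.74 through 12.48 to 14.46 on CTRL and from 12.22 through 12.78 to 13.46 on HFD. In Pparα-/- mice they ran from 11.61 through 12.52 to 13.82 on CTRL and from 12.20 through 13.42 to 14.00 on HFD. The medians thus rose from WT to Pparα-/- on HFD, yet no pair of groups was free of overlap, since the highest WT mouse on each diet, mouse 6, stood above the medians of both deletion lines.

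**Figure D1:**
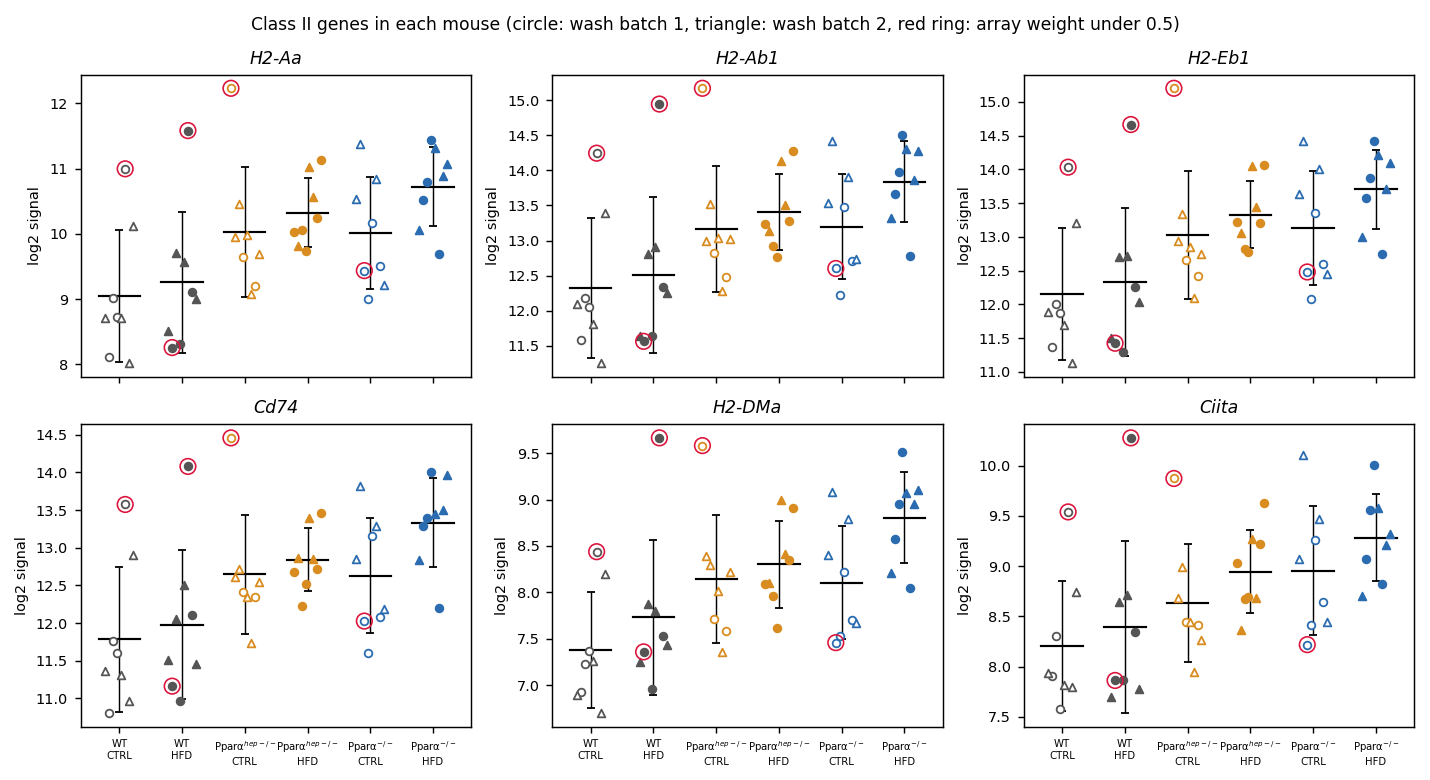
Log2 signal of the 6 class II genes in each of 48 mice, by genotype and diet. Each point is 1 mouse, bars are the group mean and SD of 8 mice, circles and triangles are wash batches 1 and 2, and red rings mark the 5 arrays of weight under 0.5. WT medians are the lowest of the 3 genotypes on each diet, and WT mouse 6 stands apart, whose Cd74 reached 13.57 on CTRL and 14.08 on HFD.

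The chain gene H2-Aa had the same picture. Its log2 signals ran in WT mice from 8.02 through a median of 8.72 to 10.997 on CTRL and from 8.26 through 9.05 to 11.58 on HFD. In Pparα-/- mice they ran from 9.01 through 9.84 to 11.38 on CTRL and from 9.69 through 10.84 to 11.44 on HFD. On HFD the lowest Pparα-/- mouse stood above the WT median. H2-Ab1 and H2-Eb1, the beta chains, spanned 10.5-fold and 10.3-fold between the lowest and the highest WT mouse on HFD, against 3.32-fold and 3.19-fold in Pparα-/- mice on HFD. The coactivator Ciita ran in WT mice from 7.58 through a median of 7.92 to 9.54 on CTRL and from 7.70 through 8.11 to 10.28 on HFD. Its log2 signals in Pparα-/- mice ran from 8.22 through 8.86 to 10.1047 on CTRL and from 8.70 through 9.27 to 10.01 on HFD. For Ciita on HFD, too, every Pparα-/- mouse stood above the WT median, and WT mouse 6 stood above all Pparα-/- mice.

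On HFD, Pparα-/- livers had more of all 6 class II members than WT livers, and each of these differences was called. The log2 difference was 1.62 ± 0.30 (SE, n = 8 and 8) for H2-Aa, a fold of 3.07, with an adjusted p of 1.6e-05 by limma. It was 1.47 ± 0.28 for H2-Ab1, 1.51 ± 0.29 for H2-Eb1, 1.52 ± 0.27 for Cd74, 1.26 ± 0.22 for H2-DMa and 1.03 ± 0.22 for Ciita. All 8 Pparα-/- mice lay above the WT mean in all 6 genes. With the class I genes, 9 of 10 members were called, against 45.7% of all tested probes in this comparison, and the median log2 difference was 1.14 over the members and -0.03 over all tested probes. Without array weights the same 6 class II genes stayed called, with smaller differences such as 1.47 for H2-Aa and 0.89 for Ciita, and 7 of 10 members were called in all, against 31.7% of all tested probes in that fit. Within wash batch 1 the difference for Cd74 was 1.38 and within wash batch 2 it was 1.70.

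On CTRL the same contrast called all 6 class II members too, with log2 differences from 0.93 ± 0.26 for H2-DMa to 1.29 ± 0.34 for H2-Eb1. Ciita, the coactivator, was higher by 1.00 ± 0.26, a fold of 2.00, with an adjusted p of 0.0021 by limma. Its other tested probes, both dim, gave 0.27, which was called, and 0.20, which was not. In all, 7 of 10 members were called against 34.2% of all tested probes. This result leaned on the weights. Without them 2 of 10 members were called, under the 31.0% of all tested probes called in that fit, Ciita at 0.75 and Tap1 at 0.38, and the other class II genes lay 0.73 to 0.98 higher with adjusted p from 0.067 to 0.10. For Cd74 the difference was 0.62 within wash batch 1 and 1.66 within wash batch 2.

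Livers that lacked PPARα in hepatocytes alone also had more class II RNA on HFD. All 6 genes were called, with log2 differences against WT of 1.27 ± 0.30 for H2-Aa, 1.08 ± 0.29 for H2-Ab1, 1.18 ± 0.29 for H2-Eb1, 1.00 ± 0.28 for Cd74, 0.80 ± 0.23 for H2-DMa and 0.67 ± 0.23 for Ciita. Adjusted p ran from 0.0013 to 0.022 by limma, and 8 of 10 members were called against 26.7% of all tested probes. Without array weights none of the 10 members was called, against 9.74% of all tested probes, although the class II genes still lay 0.53 to 1.08 higher, and without the 5 arrays of weight under 0.5 the same 8 of 10 were called, with H2-Aa at 1.39. Ciita was no longer called without mouse 5 or 8 of the Pparαhep-/- group or mouse 4 or 8 of the WT group on HFD, the largest adjusted p being 0.096. Its other tested probes, both dim, gave 0.15 and 0.07 for this difference, and neither was called.

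On CTRL, Pparαhep-/- livers had higher H2-Aa, Cd74 and H2-DMa than WT livers, by 0.89 ± 0.33, 0.84 ± 0.30 and 0.69 ± 0.25 on the log2 scale, and these 3 class II genes just passed the threshold with adjusted p of 0.043, 0.039 and 0.039 by limma. H2-Ab1 lay 0.78 higher and H2-Eb1 0.79 higher, with adjusted p of 0.062 and 0.067, and Ciita lay 0.46 higher with an adjusted p of 0.18. H2-Ab1 and H2-Eb1 passed the threshold with the authors' log2 table (0.85 and 0.86), without the wash term, with the scaled processed signal and without the 5 arrays of weight under 0.5. In this contrast 7 of 10 members were called against 24.7% of all tested probes. The H2-Aa call was lost in 11 of the 48 fits that left out 1 array, and those of Cd74 and H2-DMa in 9 each. The mice were 1, 2, 4, 5 and 7 of the WT group and 1, 2, 3, 4, 5 and 8 of the Pparαhep-/- group for H2-Aa, with WT mouse 3 and Pparαhep-/- mouse 7 added for the other genes, and without array weights no class II gene was called. With slide in place of wash batch as a block, the adjusted p of these 3 genes were 0.054, 0.066 and 0.051 and none was called.

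**Figure D2:**
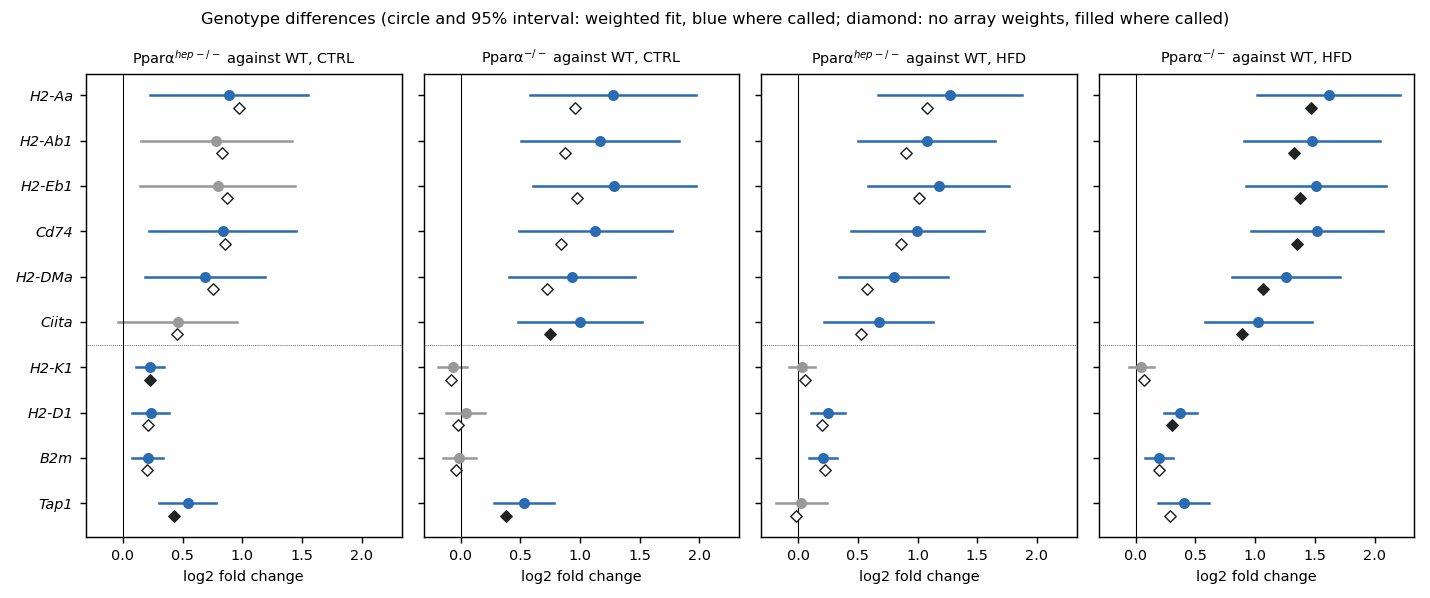
Log2 differences of the 10 members between each deletion line and WT on each diet. Circles with 95% intervals come from the weighted fit (blue where called), and diamonds from the fit without array weights (filled where called). The 6 class II genes lie to the right of 0 in every panel, and in the second panel from the right, Pparαhep-/- against WT on HFD, no diamond is filled.

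Between the deletion lines no class II gene was called by the probes used. Pparα-/- livers lay 0.25 to 0.54 above Pparαhep-/- livers on CTRL and 0.33 to 0.52 above on HFD, as log2 point estimates of the weighted fit. Without array weights the CTRL estimates ran from -0.03 to 0.30, below 0 for H2-Aa, Cd74 and H2-DMa, so no direction is given for class II between the lines on CTRL, and the HFD estimates ran from 0.36 to 0.49. Ciita was called on CTRL without the 5 arrays of weight under 0.5 (0.63), within wash batch 2 (0.90) and without mouse 4 or 8 of the Pparα-/- group on CTRL. Its tested cDNA-clone probe was called on HFD (0.30 with an adjusted p of 0.0047 by limma), and H2-DMa was called on HFD without Pparα-/- mouse 1 or Pparαhep-/- mouse 5. The 95% intervals remained wide: for Cd74 from -0.28 to 0.87 on CTRL and from -0.00031 to 1.04 on HFD, and for Ciita from 0.07 to 1.01 on CTRL.

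Between diets, class II differences of the weighted fit were smaller in point estimate than those between Pparα-/- and WT mice, a contrast of contrasts that was not tested. Within wash batch 1 this order was the other way for CTRL. There the diet differences in Pparα-/- mice were 0.78 to 1.23, and those between Pparα-/- and WT mice on CTRL 0.48 to 0.70. Over both batches, the 6 log2 differences in WT mice, HFD against CTRL, were 0.27 to 0.36 (0.18 to 0.36 without array weights), none was called, and the interval for Cd74 ran from -0.30 to 0.97. In Pparαhep-/- mice they were 0.47 to 0.75 with adjusted p from 0.059 to 0.18, and without array weights 0.18 to 0.32 with adjusted p from 0.73 to 0.87. In Pparα-/- mice H2-DMa, the peptide exchange factor, rose by 0.68 ± 0.23 with an adjusted p of 0.025 by limma, Cd74 lay 0.72 ± 0.28 higher with an adjusted p of 0.051, and the other 4 genes lay 0.30 to 0.70 higher. The H2-DMa call was lost without mouse 4, 7 or 8 of the Pparα-/- group on CTRL or mouse 4 on HFD, and without the 5 arrays of weight under 0.5 Cd74 was called in Pparα-/- mice (0.69) and 5 class II genes in Pparαhep-/- mice. Without array weights H2-DMa lay 0.70 higher in Pparα-/- mice and was not called. In the same diet contrasts macrophage and Kupffer cell markers rose in 13 of 15 in Pparα-/- mice (median 0.83), 8 of 15 in Pparαhep-/- mice (0.49) and 0 of 15 in WT mice (0.11), or in 9, 1 and 0 of 15 without array weights, where 12.1%, 3.81% and 12.6% of all tested probes were called. Leukocyte markers rose in 3, 2 and 0 of 4. Over all tested probes 24.8%, 20.2% and 18.7% were called in these contrasts. The part of these cells in the class II diet differences was not tested. No difference between genotypes in the HFD response was called for any class II gene, and the 95% intervals for Cd74 ran from -0.67 to 1.00 for Pparαhep-/- against WT and from -0.46 to 1.23 for Pparα-/- against WT.

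Class I genes differed by at most 0.54 on the log2 scale in any comparison between groups in the weighted fit on all arrays. H2-K1, a classical heavy chain, had log2 signals in WT mice on CTRL from 16.69 through a median of 16.98 to 17.26, and in Pparαhep-/- mice on CTRL from 17.03 through 17.27 to 17.37. In Pparα-/- mice it ran from 16.58 through 16.85 to 17.16 on CTRL and from 16.78 through 17.17 to 17.43 on HFD. On CTRL the median was thus the highest in the hepatocyte deletion, with overlap between all 3 genotypes, while Pparα-/- and WT livers differed by -0.07 (adjusted p of 0.44 by limma, not called) and by 0.03 with the second H2-K1 probe. H2-K1 was higher by 0.23 ± 0.06 in Pparαhep-/- than in WT livers (adjusted p of 0.0032 by limma) and lower by 0.29 ± 0.05 in Pparα-/- than in Pparαhep-/- livers, where the log2 difference was -0.29 with an adjusted p of 4.7e-05 and none of 8 Pparα-/- mice exceeded the Pparαhep-/- mean. The second H2-K1 probe gave 0.24 and -0.21 for the same differences. Without array weights they were 0.22 and -0.30, both called.

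**Figure D3:**
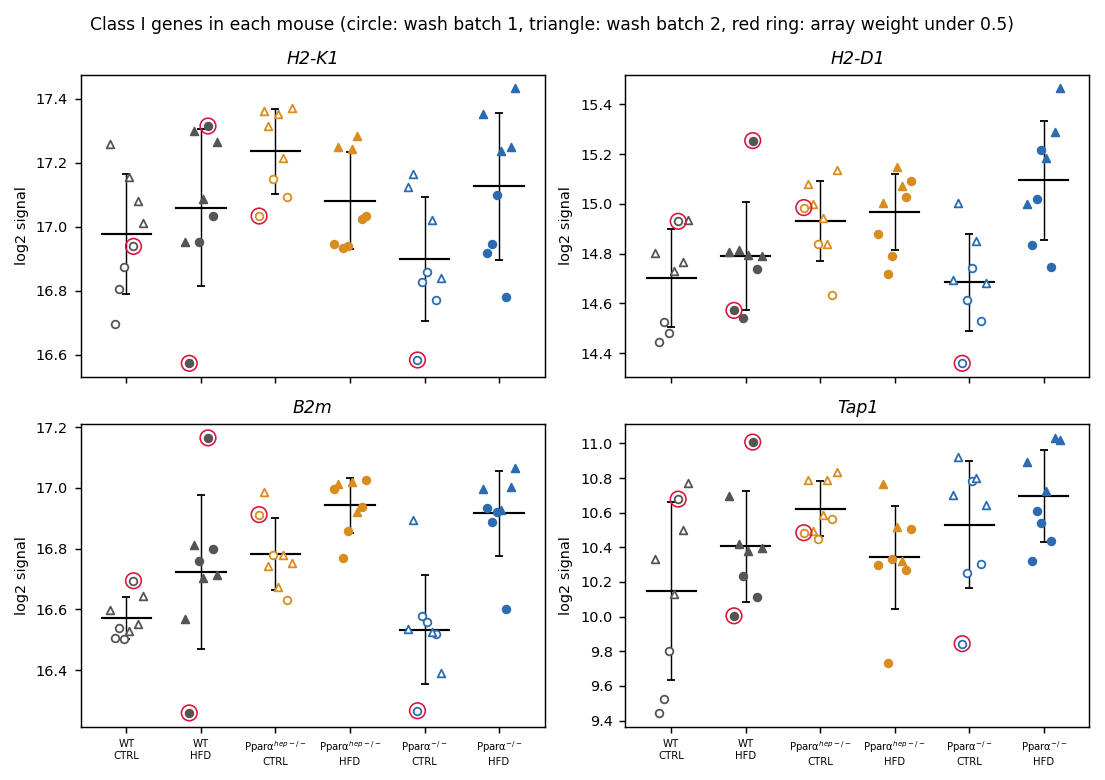
Log2 signal of the 4 class I genes in each of 48 mice, by genotype and diet, with symbols as for the class II genes. The axes span a narrower range than for class II genes. On CTRL, H2-K1 has its highest median, 17.27, in Pparαhep-/- mice against 16.98 in WT and 16.85 in Pparα-/- mice.

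B2m, the shared light chain, had the lowest SD of the 10 genes when averaged over the 6 groups, although in WT mice on HFD its SD of 0.253 was above those of H2-K1 (0.247) and H2-D1 (0.217). Its log2 signals ran in WT mice from 16.50 through a median of 16.55 to 16.69 on CTRL and from 16.26 through 16.74 to 17.16 on HFD. In Pparαhep-/- mice they ran from 16.63 through 16.77 to 16.99 and from 16.77 through 16.97 to 17.03, and in Pparα-/- mice from 16.27 through 16.53 to 16.90 and from 16.60 through 16.93 to 17.07, on CTRL and HFD. HFD medians were above CTRL medians in every genotype. By the probe used, B2m rose on HFD by 0.19 ± 0.07 in WT, 0.19 ± 0.06 in Pparαhep-/- and 0.39 ± 0.06 in Pparα-/- mice, with adjusted p of 0.043, 0.016 and 7.4e-06 by limma. Without array weights the WT and Pparαhep-/- values were 0.15 and 0.17 and not called. When the scanner's processed signal, divided by the array's 75th percentile, took the place of quantile normalised values, the value was -0.01 in Pparαhep-/- and 0.08 in Pparα-/- mice, against 0.17 in WT mice. The WT call was lost in 11 of the 48 fits that left out 1 array, namely WT mice 1, 2, 3, 4, 5 and 7 on CTRL and 3, 4, 6, 7 and 8 on HFD, and the value fell as low as 0.16. The B2m probe on a cDNA clone gave -0.0020 in WT and 0.04 in Pparαhep-/- mice for HFD against CTRL, neither called. In Pparα-/- mice it gave 0.37 and was called.

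H2-D1, the other heavy chain, ran in Pparα-/- mice from a log2 signal of 14.36 through a median of 14.69 to 15.004 on CTRL and from 14.75 through 15.10 to 15.46 on HFD. Its rise on HFD was 0.42 ± 0.07 in these mice (adjusted p of 2.8e-05), with all 8 HFD mice above the CTRL mean, against 0.09 ± 0.08 in WT and 0.11 ± 0.07 in Pparαhep-/- mice, which were not called. The difference in HFD response between Pparα-/- and WT was itself called, at 0.33 ± 0.11 with an adjusted p of 0.030 by limma, a comparison in which 14.3% of all tested probes were called and H2-D1 was the 1 member called of 10. It was lost without mouse 7 of the Pparα-/- group on CTRL, mouse 7 or 8 on HFD or WT mouse 8 on HFD (0.28 with an adjusted p of 0.066 without mouse 8 of the Pparα-/- group on HFD). It was 0.19 and 0.46 within the wash batches, 0.20 by the scaled processed signal and 0.32 without array weights, where 5.22% of all tested probes were called, and it was called in none of these. By the scaled processed signal H2-K1 was called for this response instead, at -0.27 against 0.11 with quantile normalisation. H2-K1 of Pparα-/- mice lay 0.22 ± 0.05 higher on HFD and was called, but its second probe gave 0.10 and was not, and by the scaled processed signal the log2 difference was -0.15. That scaling also called H2-K1 lower on HFD in Pparα-/- than in WT livers, at -0.22 against 0.05 with quantile normalisation, and in Pparαhep-/- than in WT livers, at -0.15 against 0.03, so no direction is given for H2-K1 on HFD. For this diet contrast 4 of 10 members were called in Pparα-/- mice against 24.8% of all tested probes, 1 of 10 in WT mice against 18.7% and 1 of 10 in Pparαhep-/- mice against 20.2%.

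**Figure D4:**
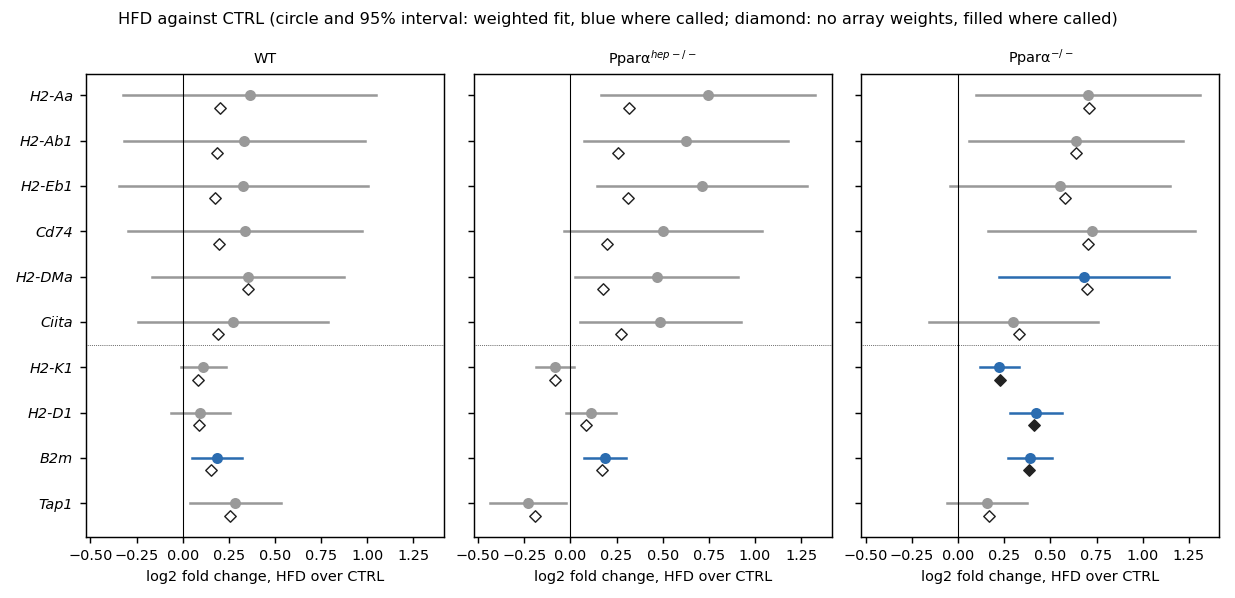
Log2 differences between HFD and CTRL for the 10 members in each genotype. Circles with 95% intervals come from the weighted fit (blue where called), and diamonds from the fit without array weights (filled where called). In Pparα-/- mice H2-D1 rose by 0.42 and B2m by 0.39, and class II intervals are the widest in all 3 panels.

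Tap1, which feeds peptides to class I, was higher in both deletion lines than in WT on CTRL. Its log2 signals ran in WT mice from 9.44 through a median of 10.23 to 10.77 on CTRL and from 10.0045 through 10.39 to 11.01 on HFD. In Pparαhep-/- mice they ran from 10.45 through 10.58 to 10.83 on CTRL and from 9.73 through 10.33 to 10.77 on HFD, and in Pparα-/- mice from 9.84 through 10.67 to 10.92 and from 10.32 through 10.67 to 11.03. Pparαhep-/- mice were therefore the tightest group on CTRL and the lowest by median on HFD. The CTRL differences against WT were 0.54 ± 0.12 for Pparαhep-/- and 0.53 ± 0.12 for Pparα-/- livers, called at adjusted p of 0.00056 and 0.00062 by limma, and without array weights they were 0.43 and 0.38 and still called. Within wash batch 1 they were 0.85 and 0.69, both called. Within wash batch 2 they were 0.31, which was not called, and 0.37, which was.

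The Tap1 difference from WT was seen on HFD in Pparα-/- livers (0.40 ± 0.11) but was 0.03 in Pparαhep-/- livers, with a 95% interval from -0.19 to 0.24. The HFD response of Pparαhep-/- mice differed from that of WT mice by -0.51 ± 0.16 with an adjusted p of 0.031 by limma, in a comparison where Tap1 was the 1 member called of 10 and 10.4% of all tested probes were called. On HFD Tap1 was 0.38 ± 0.10 higher in Pparα-/- than in Pparαhep-/- livers, again the 1 member called, against 30.6% of all tested probes. The second Tap1 probe gave 0.09 for this difference, and the probe used gave 0.31 without array weights and 0.27 within wash batch 1, none of them called. For the HFD response the second probe gave -0.48 and was also called, but for Pparα-/- against WT on HFD it gave 0.12, which was not called, and without array weights the probe used gave 0.29 there and was not called either. The response call was lost in 8 of the 48 fits that left out 1 array, namely WT mice 2, 3 and 5 on CTRL and 7 on HFD, and Pparαhep-/- mice 4, 7 and 8 on CTRL and 6 on HFD. It was -0.85 within wash batch 1, -0.27 within wash batch 2 and -0.45 without array weights, where 0.894% of all tested probes were called, and it was called in none of these.

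For H2-K1 the HFD response differed between the deletion lines, by 0.31 ± 0.07 for Pparα-/- over Pparαhep-/- mice with an adjusted p of 0.014 by limma. This was the 1 member called in a comparison with 3.42% of all tested probes called, and it was not called by the scaled processed signal (0.11), without array weights (0.32), within either wash batch (0.30 and 0.32) or by the second H2-K1 probe (0.18). H2-D1 lay at 0.31 for this response and was not called, with an adjusted p of 0.064 by limma. It was called with normexp (0.33), by the scaled processed signal (0.32) and in 7 of the 48 fits that left out 1 array. Between the deletion lines on CTRL, 3 of 10 members were called against 25.2% of all tested probes: H2-K1, H2-D1 at -0.19 ± 0.07 and B2m at -0.22 ± 0.06, all lower in Pparα-/- livers. Without array weights B2m was -0.24 and still called, and H2-D1 was -0.22 and not called. The B2m probe on a cDNA clone gave -0.09 for this difference and was not called. The H2-D1 call, with an adjusted p of 0.047, was lost in 18 of the 48 fits that left out 1 array, and the difference was -0.16 without Pparαhep-/- mouse 8 on CTRL. The others were mice 1, 2, 3 and 4 of that group, Pparα-/- mice 1, 3, 4, 6, 7 and 8 on CTRL and 3 and 5 on HFD, Pparαhep-/- mouse 2 on HFD, and WT mice 1, 5, 7 and 8 on HFD.

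Against WT livers on CTRL, the hepatocyte deletion had H2-D1 and B2m higher by 0.23 ± 0.08 and 0.21 ± 0.06, and both were called. Without array weights both lay 0.21 higher and neither was called. The B2m probe on a cDNA clone gave 0.15 and was not called. In Pparα-/- livers on CTRL the same genes lay 0.04 and -0.01 from WT, with 95% intervals of -0.12 to 0.21 and -0.14 to 0.13. On HFD H2-D1 was 0.25 ± 0.07 higher in Pparαhep-/- and 0.37 ± 0.07 higher in Pparα-/- than in WT livers, the former at 0.13 and not called by the scaled processed signal. B2m was 0.21 ± 0.06 and 0.20 ± 0.06 higher, although the scaled processed signal put it at 0.04 and -0.02. Without array weights H2-D1 in Pparαhep-/- livers (0.20) and B2m in both lines (0.23 and 0.19) were not called on HFD. The B2m probe on a cDNA clone gave 0.19 and 0.44 for these HFD differences, so the probes of this gene differ in size, and in WT mice it gave -0.0020 for HFD against CTRL. WT mouse 2 and Pparαhep-/- mouse 8, each left out, lost the H2-D1 call on CTRL, with an adjusted p of up to 0.062.

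The probes used for 7 of the 10 members lie on chromosome 17 of mm9, the build of the array's design, from 34133055 for H2-K1 to 35403945 for H2-D1, and all 10 were drawn to RefSeq transcripts. The probe used for Ciita lies at chr16:10526458-10526517 and that for B2m at chr2:121978401-121978460. The other probes of the members followed the ones used in part. For H2-Ab1 the 3 further probes gave log2 differences of 1.42 to 1.56 for Pparα-/- against WT on HFD, all called. Of the 2 further Ciita probes tested, both dim, that on a cDNA clone gave 0.45 and was called, and the other gave 0.15 and was not. For B2m the cDNA-clone probe, but not the probe used, was called for Pparα-/- against Pparαhep-/- on HFD (0.25 against -0.01) and for the HFD response of Pparα-/- mice against WT (0.37 against 0.21) and against Pparαhep-/- mice (0.33 against 0.20). The second Tap1 probe was called for HFD in WT mice (0.30).

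Class II members moved as a block among mice of the same group. After group means and wash batch were removed, Cd74 followed the other class II genes over 48 mice with Pearson's r of 0.92 for Ciita to 0.97 for H2-Eb1, and with Spearman's rho of 0.89 and 0.96. Among class I genes r with Cd74 was 0.82 for H2-D1, 0.67 for B2m, 0.62 for Tap1 and 0.49 for H2-K1. Each of these 9 relations had a permutation p of at most 0.0022 for r and 0.013 for rho (100000 two-sided permutations within groups, smallest possible 1e-05), at most 0.0028 and 0.015 after Benjamini-Hochberg adjustment over 16 relations. Without the 2 mice farthest from the median in Cd74, r was 0.89 for Ciita, 0.78 for H2-D1 and 0.41 for H2-K1. The within-group SD averaged 0.60 to 0.85 log2 units for class II genes, above that of 97.5% to 99.4% of all tested probes, and 0.14 to 0.32 for class I genes, against a median of 0.21 over all probes.

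Markers of leukocytes moved with class II among mice of the same group. In the same 48 mice, r between Cd74 and the mean log2 signal of a marker list was 0.91 for 4 leukocyte markers (rho 0.86), 0.90 for 8 dendritic cell markers (rho 0.84), 0.82 for 10 T and NK cell markers (rho 0.75) and 0.65 for 15 macrophage and Kupffer cell markers (rho 0.54), each with a permutation p of at most 0.00027 and an adjusted p of at most 0.00039. It was 0.45 for 6 B cell markers and -0.41 for 8 hepatocyte markers (permutation p of 0.01 and 0.0053 for r, 0.0028 and 0.031 for rho, and 0.011 and 0.0061 for r after adjustment), and without the 2 mice farthest from the median in Cd74 these were 0.41 and -0.31 (0.37 and -0.20 without the 5 arrays of weight under 0.5), against 0.87 for the leukocyte markers and 0.55 for the macrophage markers. For 6 liver endothelial markers r was 0.33 (permutation p of 0.035, adjusted 0.035) and rho 0.28 (permutation p of 0.064). In whole liver, fewer cells of a type and less RNA per cell cannot be told apart.

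**Figure D5:**
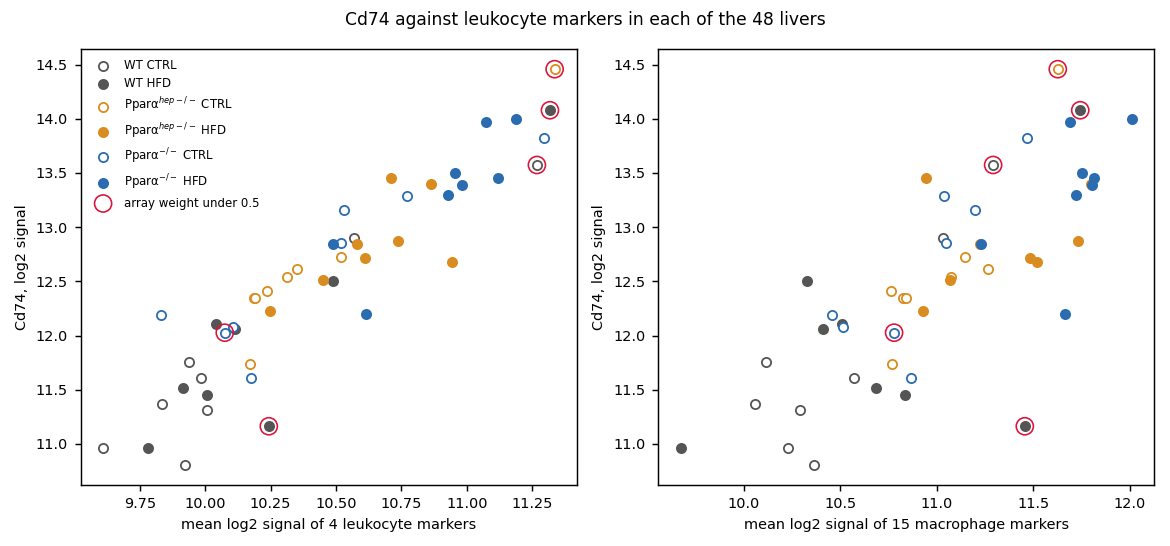
Cd74 log2 signal in each of 48 livers against the mean log2 signal of 4 leukocyte markers (left) and of 15 macrophage markers (right), coloured by genotype and filled for HFD. Red rings mark the 5 arrays of weight under 0.5, of which 3 lie at the upper right of the left panel, with leukocyte means of 11.27, 11.32 and 11.34.

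Between groups, macrophage and Kupffer cell markers were called higher in 13 of 15 for Pparα-/- against WT on HFD, with a median log2 difference of 1.39, and in 11 of 15 for Pparαhep-/- against WT, with a median of 0.93. Over all tested probes 45.7% and 26.7% were called in these comparisons. Lyz2, a lysozyme of macrophages, was higher by 1.90 and 1.27, and Adgre1, a surface receptor of macrophages, by 1.75 in Pparα-/- livers. On CTRL, 6 of 15 were higher and 1 lower in Pparα-/- livers and 5 of 15 higher in Pparαhep-/- livers, against 34.2% and 24.7% of all tested probes. Without array weights the HFD counts were 12 and 3 of 15, against 31.7% and 9.74% of all tested probes. The log2 of the summed marker signal ran from 14.55 to 16.86 in WT and from 16.11 to 17.08 in Pparα-/- mice on HFD, and every marker on this list was above background on at least 43 of 48 arrays. The part of these cells in the class II differences was not tested.

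Other leukocyte lists moved less evenly. On HFD, dendritic cell markers were higher in 2 of 8 for Pparα-/- and 3 of 8 for Pparαhep-/- against WT, T and NK cell markers in 5 of 10 and 1 of 10 (with 1 lower), B cell markers in 1 of 6 and 0 of 6, and leukocyte markers in 3 of 4 each, with 1 lower in Pparαhep-/- livers. Against the 45.7% and 26.7% of all tested probes called, the dendritic, T and NK and B cell counts lay near or under the background. Liver endothelial markers were higher in 4 of 6 for each line, with 1 lower in Pparα-/- livers, and hepatocyte markers were higher in 0 of 8 and lower in 3 of 8 for Pparα-/- and higher and lower in 1 of 8 each for Pparαhep-/-. Several defining markers were dim: Ncr1 was above background on 5 arrays, Klrb1c on 22, Cd8a on 23 and Cd209a on 27. The summed dendritic and T cell signals rested on single bright probes, Siglech and Cd4, and so mean log2 signals are given for those lists. On CTRL the counts higher and lower in Pparα-/- against WT were 0 and 0 for dendritic, 4 and 1 for T and NK, 2 and 0 for B cell, 1 and 0 for leukocyte, 2 and 1 for endothelial and 0 and 4 for hepatocyte markers. For Pparαhep-/- against WT on CTRL they were 2 and 1, 1 and 0, 0 and 0, 0 and 1, 3 and 0, and 0 and 3 in the same order, and over all tested probes 34.2% and 24.7% were called in these contrasts. The median log2 difference of the leukocyte list was 0.38 in each of these CTRL contrasts, against -0.02 and -0.01 over all tested probes. Their part in the class II differences was not tested either.

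Partners of class II outside the 10 members were also higher in the deletion lines on HFD. Of 11 tested, 9 were higher in Pparα-/- and 7 in Pparαhep-/- than in WT livers and none was lower, with median log2 differences of 0.66 and 0.40, against 45.7% and 26.7% of all tested probes called. Over all tested probes the median lay between -0.03 and 0.01 in each of the 12 comparisons. Without array weights these counts were 7 and 0, against 31.7% and 9.74%. Ctss, the protease that trims the invariant chain, was higher by 1.49 ± 0.26 in Pparα-/- and 1.42 ± 0.26 in Pparαhep-/- livers. Ifi30, a thiol reductase of the endosome, was higher by 1.28 ± 0.15 and H2-DMb1, the partner chain of H2-DMa, by 1.27 ± 0.24 in Pparα-/- livers. On HFD 6 of 11 rose in Pparα-/- mice, led by Ctss at 1.13, Ifi30 at 0.81 and Lgmn, an asparagine endopeptidase, at 0.72, as did 2 of 11 in Pparαhep-/- mice and 0 of 11 in WT mice, against 24.8%, 20.2% and 18.7% of all tested probes called. On CTRL 4 were higher and 1, the ubiquitin ligase March1 at -0.49, lower in Pparα-/- than in WT livers, and 3 were higher in Pparαhep-/- livers, against 34.2% and 24.7% of all tested probes, so that 3 of 11 is near the background.

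Genes of the class I pathway moved in both directions on CTRL and mostly upward on HFD in Pparα-/- mice. Of 17 tested, 6 were higher and 3 lower in Pparαhep-/- than in WT livers on CTRL: the immunoproteasome subunits Psmb9 and Psmb8 by 1.21 and 0.60 and the transporter subunit Tap2 by 0.35, against -0.38 for Pdia3, -0.35 for Calr and -0.16 for Canx, chaperones of the endoplasmic reticulum. The median over the list was 0.13, 24.7% of all tested probes were called, and without array weights 4 were higher and 1 lower, against 16.6% of all tested probes. In Pparα-/- against WT livers on CTRL 2 of 17 were higher, Psmb9 by 0.76 and Tap2 by 0.28. Only 1 was lower, H2-Q10, a class I gene of the liver, at -0.25. These counts lay under the 34.2% of all tested probes called in that contrast. On HFD 8 of 17 were higher and 2 lower in Pparα-/- than in WT livers, against 45.7% of all tested probes called: H2-M3 was higher by 0.65, Psmb9 by 0.52 and Tapbp, which holds class I at the transporter, by 0.43, and H2-Q10 was lower at -0.60 and H2-Q7 at -0.39. Between diets 9 of 17 rose and 0 fell in Pparα-/- mice, led by Psmb8 at 0.47, against 24.8% of all tested probes called, while 3 rose and 1 fell in WT mice, near the 18.7% called there, and none was called in Pparαhep-/- mice, against 20.2%. The paralogous heavy chain genes share sequence, so a probe of one may read another. The HFD response of Psmb9 differed by -0.92 between Pparαhep-/- and WT mice (adjusted p of 0.00082 by limma), with Tap1 and Psmb9 neighbours in the MHC.

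A list of interferon genes held induced genes along with Ifng, its receptor chains Ifngr1 and Ifngr2 and the kinases Jak1 and Jak2. Its members were higher on CTRL in 10 of 17, all of them induced genes, for Pparαhep-/- against WT, with Ifit3, Ifit1 and Gbp3 higher by 1.32, 1.18 and 1.13, and in 2 of 17 for Pparα-/- against WT (with 1 lower), against 24.7% and 34.2% of all tested probes called. Between the deletion lines on CTRL, 6 of 17 were lower in Pparα-/- livers, among them Irf7 at -1.07. The 1 called higher was Ifng, by 0.65, against 25.2% of all tested probes called. Its probe was dim, with a median log2 signal of 5.51, and was well above background on only 17 arrays. The Ifng value therefore lies near background. On HFD 13 of 17 were higher in Pparα-/- than in WT livers, with the chemokine Cxcl10 at 1.30, the GTPase Igtp at 0.95 and Gbp3 at 0.92, and 6 of 17 in Pparαhep-/- livers, against 45.7% and 26.7%. The list medians of the log2 difference against WT were 0.45 on both diets for the contrast with more calls, Pparαhep-/- on CTRL and Pparα-/- on HFD. Without array weights 3 of 17 were higher in Pparαhep-/- livers on CTRL and 5 of 17 in Pparα-/- livers on HFD, near or under the 16.6% and 31.7% of all tested probes called in that fit. Between diets 8 of 17 rose and 0 fell in Pparα-/- mice, among them Gbp2 by 1.34, against 24.8% of all tested probes called. In Pparαhep-/- mice 2 rose, Ifngr2 and Ifngr1, and 4 fell, among them Ifit1 at -0.68, and in WT mice Irf7 fell at -0.60 and none rose, against 20.2% and 18.7% of all tested probes called.

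Regulators of MHC transcription showed no shared direction. Of 13 tested, 4 were higher and 3 lower in Pparα-/- than in WT livers on HFD, with a median log2 difference of 0.06, and without array weights 2 were higher and 0 lower, against 31.7% of all tested probes. The 7 of 13 called stand beside 45.7% of all tested probes. Irf8, a factor of the macrophage and dendritic lineages, was higher by 1.06 ± 0.17 and Spi1, which encodes PU.1, by 0.45 ± 0.12, whereas Rfxap, a subunit of the RFX complex that binds class II promoters, lay at -0.20. On CTRL Rfxank, another RFX subunit, was higher by 0.75 in Pparαhep-/- and 0.70 in Pparα-/- livers, and Rfxap was lower at -0.43 and -0.69.

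Among the genes whose signals followed Cd74 most closely over all 48 arrays, after the wash effect was subtracted, were H2-DMb1 with r of 0.97, and Myof, Irf8 and Plekha2 with r of 0.94 each. For Tap1 they were Rgl2 and Slc39a13 with r of 0.83, H2-T22 with r of 0.83, and H2-T9 and Strada with r of 0.81. These values include the differences between groups and describe likeness only.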

How the data were processed

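Liver RNA of 48 mice was labelled with Cy3 and hybridised by the authors to 1-colour Agilent mouse arrays, read with Feature Extraction 10.10.1.1 as named in the submitters' processing notes; the deposited intensity columns are scanner values and the deposited log2 table was normalised by the authors, with limma named as a tool. Here, the log2 of the median signal intensity was taken, outlier spots (195 probe values of 194 probes) were left out, spots of a probe averaged, probes kept if 4 or more arrays of any group of 8 had them well above background, and arrays quantile normalised. Group means and wash batch were fitted in limma 3.58.1 under R 4.3.3 with array weights, and missing values were left out of the fit of their probe. Array number limits the precision: 8 mice a group. The SEs and intervals cover the spread between mice.

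Alternatives were other weights, batch terms, within-batch fits, replicate numbers as a block, other signals and backgrounds, the authors' table, other filters and thresholds, and each array left out; leaving out 5 arrays of weight under 0.5 was added after seeing the data. Fits were tested on simulated data. The 10 members, the gene and marker lists and the promoter motif were chosen with earlier results of these data known. All members were named; likeness took the 5 gene names with the highest r, of which 1 is not reported here; each list names up to 3 genes a direction and contrast. Of the listed names, Psme2, Emr1 and Ighm were not on the array by that name, and H2-DMb2, H2-Eb2, H2-Ea-ps, Xcr1 and Cd79a were not tested. Promoters are RefSeq, GRCm38.p6; probe names and coordinates are those of the array's mm9 design.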

Additional observations from a re-analysis of the deposited data

Results flagged for a closer look

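On 2 arrays most class II members stood far above the rest of their group by Dixon's test. WT mouse 6 on HFD had log2 signals of 11.58 for H2-Aa, 14.95 for H2-Ab1, 14.66 for H2-Eb1, 9.66 for H2-DMa and 10.28 for Ciita, and also 15.25 for H2-D1. Pparαhep-/- mouse 1 on CTRL had 12.23 for H2-Aa, 15.17 for H2-Ab1, 15.20 for H2-Eb1, 14.46 for Cd74 and 9.58 for H2-DMa. Their mean log2 signals of 4 leukocyte markers, 11.32 and 11.34, were the highest of their groups, and their array weights were 0.37 and 0.19. Pparα-/- mouse 6 on HFD was far below its group in B2m, at 16.60. Of 60 combinations of gene and group, 12 stood out in this way, where chance gives about 1 in 20, and the class II genes of a mouse are not independent.

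For 1 of 10 members in each comparison, all class I genes, the HFD response differed between genotypes by a test of the difference itself. The log2 differences were -0.51 for Tap1 between Pparαhep-/- and WT mice, 0.33 for H2-D1 between Pparα-/- and WT mice and 0.31 for H2-K1 between Pparα-/- and Pparαhep-/- mice, in comparisons that called 10.4%, 14.3% and 3.42% of all tested probes, so that 1 of 10 is near or under the background in the comparisons with WT. None of the 3 was called without array weights or within either wash batch. The second H2-K1 probe gave 0.18 and was not called, and the second B2m probe was called for the responses of Pparα-/- mice against WT (0.37) and against Pparαhep-/- mice (0.33).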

How the results depend on the processing

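Of 44 called member differences, all kept direction and call with the authors' log2 table, with normexp and with the stricter brightness filter, 41 without the wash term, 39 with the replicate block, 37 with slide as a block, 36 with the scaled processed signal, 32 without a filter, 16 without array weights, 43 without the 5 arrays of low weight, and 13 and 29 within wash batches 1 and 2, where groups of 3 to 5 limit the test. The scaled processed signal reversed H2-K1 (HFD against CTRL in Pparα-/-, -0.15), B2m (the same contrast in Pparαhep-/-, -0.0097) and B2m (Pparα-/- against WT on HFD, -0.021). It also changed the share of calls that were higher from 46.8% to 34.6% for HFD in Pparαhep-/- mice, from 49.7% to 37.8% for Pparαhep-/- against WT on HFD, and for the HFD responses of Pparαhep-/- and Pparα-/- against WT from 44.4% to 31.4% and from 48.3% to 34.5%. The cause was not tested.

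Counts of called members, of 10, that moved by over 1.5 times are given below. Of the smaller moves, the count for Pparαhep-/- against WT on CTRL rose from 7 to 9 with the authors' table, the scaled processed signal, without the wash term and without the 5 arrays, and without weights the counts fell from 4 to 3 for HFD in Pparα-/- mice, from 9 to 7 for Pparα-/- against WT on HFD and from 3 to 2 for Pparα-/- against Pparαhep-/- on CTRL. For HFD in WT mice the count of 1 became 0 without weights, without a filter, without the wash term, with slide or replicate block, within either wash batch and at an adjusted p of 0.01. For HFD in Pparαhep-/- mice the count of 1 became 0 without weights or filter, within either wash batch and at 0.01, 2 with the stricter filter, 3 with the scaled processed signal and 6 without the 5 arrays. For HFD in Pparα-/- mice 4 became 2 with the scaled processed signal. For Pparαhep-/- against WT on CTRL 7 became 2 without weights or at 0.01, 3 without a filter, 4 with slide or replicate block, and 2 and 1 within wash batches 1 and 2. For Pparα-/- against WT on CTRL 7 became 2 without weights and 1 within wash batch 1. For Pparα-/- against Pparαhep-/- 3 became 1 on CTRL within wash batch 1, and 1 became 0 on HFD within wash batch 1 and without weights. For Pparαhep-/- against WT on HFD 8 became 0 without weights and within wash batch 1. For the 3 differences in HFD response the count of 1 became 0 without weights, within either wash batch and at 0.01. It also became 0 for Pparαhep-/- against WT without a filter and with slide as a block, for Pparα-/- against WT without a filter and without the wash term, and 2 for Pparαhep-/- against WT with the scaled processed signal and for Pparα-/- against Pparαhep-/- with normexp. Leaving out 1 array at a time gave counts of 0 to 2, 1 to 3 and 3 to 7 for HFD in WT, Pparαhep-/- and Pparα-/- mice, 3 to 9, 7 to 7 and 2 to 3 on CTRL and 7 to 8, 9 to 9 and 1 to 2 on HFD for Pparαhep-/- against WT, Pparα-/- against WT and Pparα-/- against Pparαhep-/-, and 0 to 1, 0 to 2 and 1 to 2 for the responses in the same order.

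Replicate numbers did not pair the mice: over 120 pairs of arrays with the same number, deviations from group means correlated with a median r of 0.01, from -0.51 to 0.72, with 36 over 0.1, and 7 of 48 arrays correlated best with their own number. With the replicate block 9 members were called for Pparα-/- against WT on HFD, as without it. Median array signals were 56 to 91 over backgrounds of 20 to 36, which limits dim probes.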
